A study of Mus musculus with 18 samples.

Results

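Regulatory T (Treg) cells that overexpressed the whole miR-23, miR-27 and miR-24 cluster (cluster Tg) were compared with Treg cells that overexpressed miR-23 alone (miR-23 Tg), with 3 RNA sequencing libraries in each group. Both groups carried extra miR-23, so the comparison asks what accompanied the addition of miR-27 and miR-24 to it. The miR-23a locus had fewer reads in cluster Tg than in miR-23 Tg, so the level of miR-23 may differ too. The genes were those with at least 1 RPKM (reads scaled to transcript length and to the mapped reads of the library) in at least 3 of the 18 libraries of the series, which left 11520 genes of 23953 entries. The other groups, also of 3 libraries each, overexpressed miR-24 alone (miR-24 Tg) or miR-27 alone (miR-27 Tg), lacked the clusters of miR-23a and miR-23b (DKO), or were wild type (WT). All cells were sorted as CD4+ with high CD25 from C57BL/6 mice, and overexpression and deletion were specific to T cells. The series title names CD4cre, a driver that is active in CD4 and CD8 T cells and not in Treg cells alone, so other T cells of the same animals carried the change too. Ages, the insertion site of the transgenes and the number of animals behind a library are not given in the sources used here, so p-values measure the spread between these libraries, which may be technical.

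MicroRNAs are short RNAs that pair through bases 2 to 8, the seed, with sites in the 3' UTRs of messenger RNAs and lower their stability or translation. The miR-23a cluster is transcribed as 1 primary RNA that is cut into 3 mature microRNAs with different seeds, so each of them reads a different set of sites. Treg cells depend on the transcription factor Foxp3 and restrain other T cells. Under stimulation they take on an effector state with activation receptors, adhesion molecules and receptors for tissue homing.

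The mature sequences of the 3 microRNAs, from RefSeq (GRCm38.p6), are given because their seeds differ, with bases 2 to 8 in capitals.
miR-27a-3p: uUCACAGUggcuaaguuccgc
miR-24-3p: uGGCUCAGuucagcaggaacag
miR-23a-3p: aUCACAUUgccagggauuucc
The mature arm of miR-27a lies at chr8:84208727-84208747, that of miR-24 from Mir24-2 at chr8:84208875-84208896 and that of miR-23a at chr8:84208563-84208583, all on the plus strand.

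Reads at these loci separated the groups as their labels say. Mir27a had 24076, 18298 and 13710 RPKM in the cluster Tg libraries, against 135, 107 and 217 RPKM in the miR-23 Tg libraries. Mir24-2 had 7943, 6413 and 6052 RPKM in cluster Tg, against 32.9, 28.3 and 36.0 RPKM in miR-23 Tg. Neither locus overlapped between the groups, and both were higher in cluster Tg in the model across all genes (limma, Benjamini-Hochberg adjusted p = 0.0126 for Mir27a and 0.00921 for Mir24-2). Mir23a, which both transgenes supply, had 22900, 17106 and 11691 RPKM in cluster Tg, against 31554, 31028 and 38276 RPKM in miR-23 Tg. Its groups did not overlap either, and the mean in cluster Tg was 0.513 times that in miR-23 Tg. The difference did not pass the test (limma adjusted p = 0.792), but that model takes its spread from all 18 libraries. Within miR-24 Tg the locus varied from 0 to 831 RPKM, so this p does not decide whether the 2 compared groups differed. The exact two-sided permutation p was 0.1 for each of the 3 loci, the smallest that 3 against 3 libraries can give. Mir27a reached 68704 ± 16221 RPKM in miR-27 Tg and Mir24-2 reached 13497 ± 7722 RPKM in miR-24 Tg (SD, n = 3 each), above their means in cluster Tg (18695 ± 5194 and 6803 ± 1004 RPKM). The loci of the miR-23b cluster stood at 0.00771 RPKM or less in every library. Reads at a hairpin locus do not measure the mature microRNA. Gt(ROSA)26Sor, the noncoding RNA of a locus widely used for transgenes, had 3.11, 5.48 and 7.84 RPKM in cluster Tg, against 4.93, 5.76 and 5.93 RPKM in miR-23 Tg. Those groups overlapped, and WT stood above both at 15.6 ± 2.89 RPKM (SD, n = 3).

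**Figure D1:**
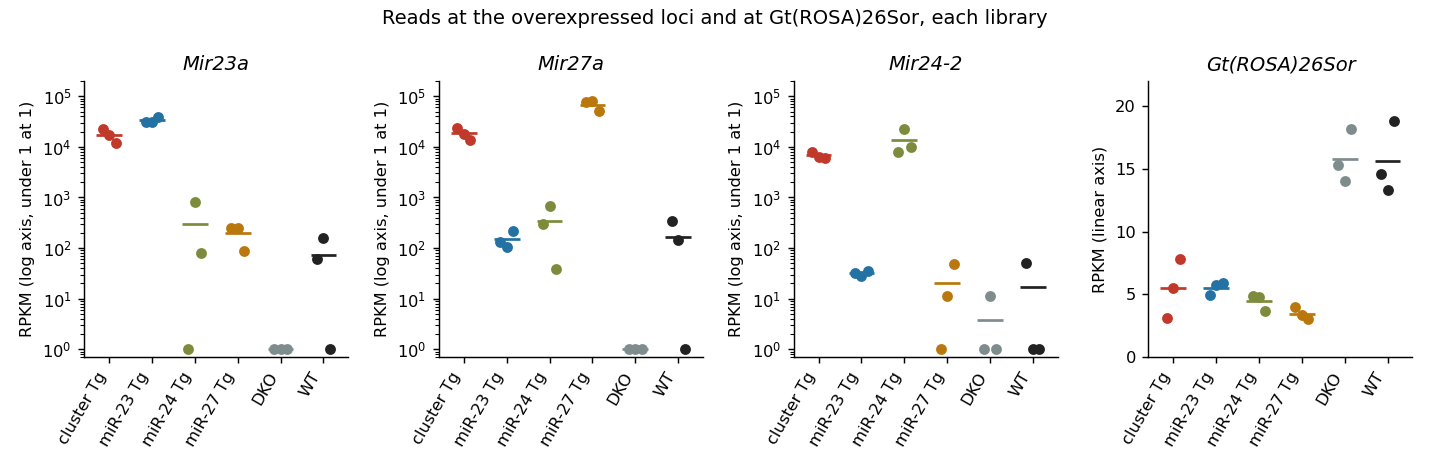
Reads at Mir23a, Mir27a and Mir24-2 (log axis, values under 1 RPKM drawn at 1) and at Gt(ROSA)26Sor (linear axis) in each of the 18 libraries, with points for libraries and lines for group means in RPKM. Mir27a and Mir24-2 are high in cluster Tg and at most 217 and 36.0 RPKM in miR-23 Tg, while Mir23a is high in both.

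The depth, estimated from the steps between low RPKM values, was 22.49 to 30.41 megareads in the 6 compared libraries. Over all 18 it was 20.32 to 31.69 megareads. The best estimate of a library scored only 1.01 to 1.09 times the next best, so these depths are uncertain. Cd4, Cd3e, Foxp3, Il2ra, Ctla4 and Ikzf2 were detected in all 6 libraries, the lowest value being Ikzf2 at 58.7 RPKM, so the cells had the markers of their label. Of 19 tested B cell genes, 16 had a lower fitted level in cluster Tg, with a median log2 difference of -0.90, and their summed level was 295 to 394 RPKM in cluster Tg and 301 to 433 RPKM in miR-23 Tg. Cd79a, part of the B cell receptor, had 1.65, 1.66 and 3.59 RPKM in cluster Tg, against 6.26, 6.37 and 5.46 RPKM in miR-23 Tg, and WT lay at 1.60 RPKM on average. None of the 19 passed the test. Earlier work found library 1 of miR-24 Tg and library 3 of miR-27 Tg richest in such genes. With both left out of the model, 7 passed as lower and 1 as higher. In the fit of only the 2 compared groups, 5 passed as lower. Lyz2 of myeloid cells had 8.20, 7.72 and 7.97 RPKM in cluster Tg, against 18.2, 19.4 and 7.05 RPKM in miR-23 Tg. The summed myeloid list was 80.9 to 109 RPKM in cluster Tg and 71.5 to 110 RPKM in miR-23 Tg. Cd8a stayed at 3.6 RPKM or less in all 6. Xist was high in cluster Tg libraries 1 and 2 and miR-23 Tg library 3, and Ddx3y in the other 3, so both sexes were in each group in unequal numbers. In bulk RNA, fewer cells of a type and less RNA per cell cannot be told apart.

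More genes rose than fell in cluster Tg against miR-23 Tg, and most differences were small. Calls were made at an adjusted p under 0.05 (limma on log2(RPKM + 0.5), Benjamini-Hochberg over the 11520 genes, two-sided). By that rule 1257 genes (10.9%) were higher and 909 (7.89%) lower in cluster Tg, with 3792 genes at an unadjusted p under 0.05. Differences of at least 2-fold were found for 234 of the higher and 66 of the lower genes, and the median size over the called genes was 0.50 on the log2 scale. The 3 and 3 values did not overlap for 2123 of the 2166 called genes, and for 4312 (37.4%) of all tested genes. The median log2 difference over all genes was 0.01. Folds on the log2(RPKM + 0.5) scale understate the change of genes near or below 0.5 RPKM. The counts depended on the libraries and on the estimate of the spread. Without cluster Tg library 1, 677 genes were higher and 400 lower. Without miR-23 Tg library 1 they were 758 and 457, and without miR-23 Tg library 2 they were 873 and 553. Each of the 2166 genes kept its direction in every alternative fit that held it.

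**Figure D2:**
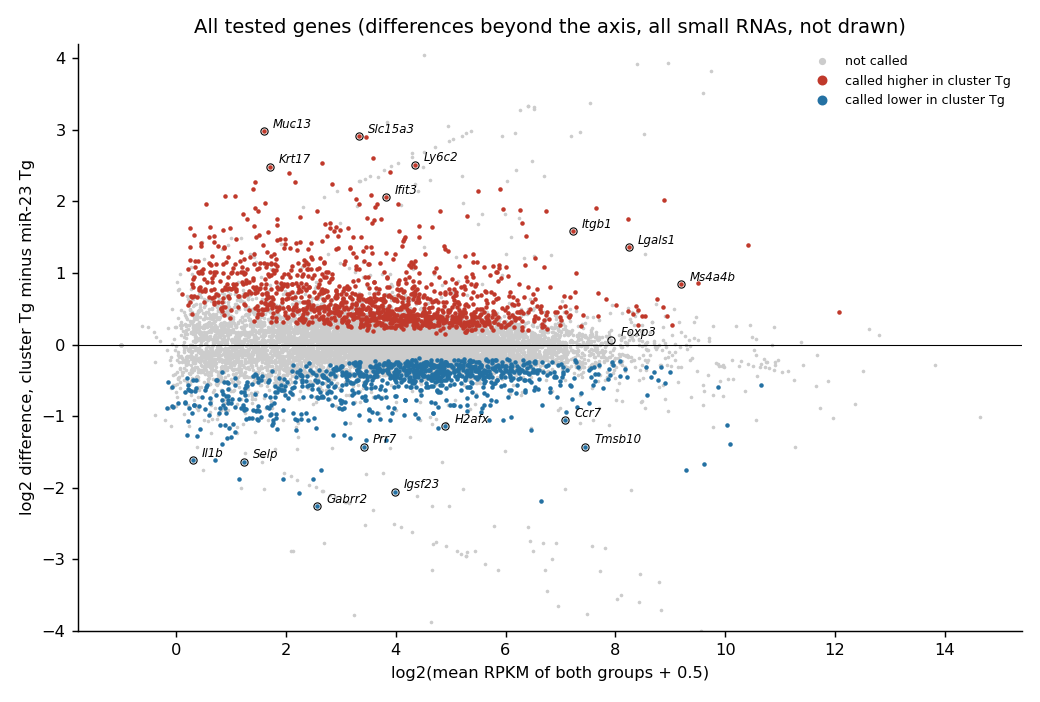
Log2 difference, cluster Tg minus miR-23 Tg, against log2(mean RPKM of both groups + 0.5) for the tested genes, with genes called higher in red, called lower in blue and the rest in grey. Called genes lie at all levels, the larger upward differences reach 2.98 (Muc13) and Foxp3 lies near 0.

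The 12 largest rises included a ligand of T cell costimulation, a cytokine receptor, an integrin and a cell cycle inhibitor. Slc15a3, a peptide and histidine transporter of endolysosomes on chromosome 19, had 26.5, 17.2 and 8.93 RPKM in cluster Tg, against 1.90, 1.55 and 1.67 RPKM in miR-23 Tg. Every cluster Tg library lay above every miR-23 Tg library, a 7.5-fold difference (log2 2.91 ± 0.28 SE, limma adjusted p = 2.80e-05). Cd80, a ligand of CD28 and CTLA-4 on chromosome 16, had 30.9, 16.2 and 10.3 RPKM in cluster Tg, against 1.73, 2.05 and 1.86 RPKM in miR-23 Tg. The groups were again apart, by 7.49-fold (adjusted p = 6.58e-05). Il1rl1, which encodes the receptor for interleukin-33, had 33.7, 26.1 and 14.5 RPKM in cluster Tg, against 4.04, 3.46 and 4.55 RPKM in miR-23 Tg. It was 5.33-fold higher (limma adjusted p = 9.74e-05), and WT averaged 4.77 RPKM. Dleu2, the noncoding host transcript of miR-15a and miR-16-1, had 28.4, 17.4 and 14.3 RPKM in cluster Tg, against 2.82, 3.76 and 1.91 RPKM in miR-23 Tg. Library 1 was the highest of the cluster Tg libraries for each of these 4 genes.

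Itgam, an integrin chain best known from myeloid cells, had 9.64, 6.61 and 3.53 RPKM in cluster Tg, against 0.847, 0.726 and 0.700 RPKM in miR-23 Tg. Csf1r, a defining receptor of macrophages, was at 0.423 RPKM or less in each cluster Tg library. Itgam was 1 of 2 called genes of the 19 on the myeloid list, both higher (10.5%, beside 10.9% of all tested genes). The other was Ly6d, with 15.1, 17.7 and 21.0 RPKM in cluster Tg, against 10.02, 9.49 and 6.49 RPKM in miR-23 Tg (2.03-fold higher, limma adjusted p = 0.0376, and 0.063 to 0.132 without any single one of the 6 libraries). Lilrb4 of the same list had 19.4, 9.59 and 6.81 RPKM in cluster Tg, against 4.6, 5.49 and 4.75 RPKM in miR-23 Tg, and was not called (limma adjusted p = 0.0676). The part of other cells in these genes was not tested. Ly6c2, which encodes the surface protein Ly6C, had 64.3, 20.6 and 19.9 RPKM in cluster Tg, against 5.32, 6.23 and 3.36 RPKM in miR-23 Tg. Muc13, a membrane mucin, had 9.16, 2.68 and 2.96 RPKM in cluster Tg, against 0.0988, 0.0523 and 0.147 RPKM in miR-23 Tg. The groups of Itgam, Ly6c2 and Muc13 did not overlap, and cluster Tg library 1 was again the highest. Cdkn2a, which encodes the cell cycle inhibitors p16 and p19ARF, had 14.1, 4.79 and 2.71 RPKM in cluster Tg, against 1.01, 0.648 and 0.777 RPKM in miR-23 Tg (4.82-fold, limma adjusted p = 0.00332). Phlda3, a p53 target that restrains Akt, had 17.5, 10.9 and 5.79 RPKM in cluster Tg, against 2.65, 2.40 and 0.818 RPKM in miR-23 Tg. Krt17, a keratin, had 6.68, 6.03 and 2.53 RPKM in cluster Tg, against 0.627, 0.525 and 0.216 RPKM in miR-23 Tg. None of the groups overlapped. The remaining 2 of the 12 lost their call when a library was left out. Ifi44, an interferon-induced gene, had 6.14, 4.03 and 1.90 RPKM in cluster Tg, against 0.556, 0.361 and 0.208 RPKM in miR-23 Tg (limma adjusted p = 0.00955, and 0.053 without cluster Tg library 1). Eps8l1, of the EPS8 family of actin regulators, had 11.4, 14.1 and 5.36 RPKM in cluster Tg, against 0.935, 0.881 and 2.12 RPKM in miR-23 Tg. WT averaged 11.1 RPKM, so miR-23 Tg stood apart from cluster Tg and WT. Single libraries varied from 0.885 to 8.61 RPKM in miR-24 Tg and from 2.52 to 16.3 RPKM in miR-27 Tg. The limma adjusted p of Eps8l1, 0.0225, became 0.0811 without cluster Tg library 1 and 0.0703 without cluster Tg library 2. It became 0.0751 without miR-23 Tg library 1 and 0.0723 without miR-23 Tg library 2.

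The largest falls were smaller than the largest rises, and Tmsb10 aside they were in genes at 24.7 RPKM or less in miR-23 Tg on average. Gabrr2, a GABA receptor subunit on chromosome 4, had 0.659, 1.21 and 3.35 RPKM in cluster Tg, against 7.39, 8.59 and 11.3 RPKM in miR-23 Tg. It was 4.81-fold lower (log2 -2.26 ± 0.33 SE, limma adjusted p = 5.95e-04), and WT stood near miR-23 Tg at 9.31 RPKM. Igsf23, of the immunoglobulin superfamily, had 3.6, 6.01 and 7.78 RPKM in cluster Tg, against 26.9, 24.7 and 22.5 RPKM in miR-23 Tg. The groups were 4.16-fold apart (adjusted p = 9.74e-05). Tmsb10, which binds actin monomers, was the most abundant of these genes, with 79.7, 90.9 and 114 RPKM in cluster Tg, against 241, 280 and 242 RPKM in miR-23 Tg. It was 2.69-fold lower (limma adjusted p = 3.92e-04) in cluster Tg, and WT lay at 264 RPKM. Tgm2, a transglutaminase, had 1.99, 1.59 and 2.10 RPKM in cluster Tg, against 9.0, 8.86 and 7.15 RPKM in miR-23 Tg. Selp, which encodes P-selectin, had 0.376, 0.647 and 0.961 RPKM in cluster Tg, against 2.75, 3.19 and 3.20 RPKM in miR-23 Tg. Prr7, a proline-rich membrane protein, had 4.79, 6.71 and 4.44 RPKM in cluster Tg, against 17.2, 12.7 and 15.1 RPKM in miR-23 Tg. All of these groups were apart.

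Sh3bgrl2 fell 4.22-fold and is described with its seed sites. Tspan9, a tetraspanin, fell 3.08-fold, and Drc1, a part of the axonemal dynein regulatory complex, fell 3.68-fold. Tmevpg1, a long noncoding RNA that neighbours Ifng, had 0.265, 0.487 and 0.595 RPKM in cluster Tg, against 2.72, 3.15 and 3.0 RPKM in miR-23 Tg, with WT between them at 1.11 RPKM. For 2 of the 12, Il1b and Faim3, WT was near cluster Tg and miR-23 Tg lay above both. So did the means of miR-24 Tg and miR-27 Tg, at 1.30 and 0.939 RPKM for Il1b and 5.92 and 6.96 RPKM for Faim3. Il1b had 0.217, 0.109 and 0 RPKM in cluster Tg, against 1.28, 1.74 and 1.09 RPKM in miR-23 Tg, and 0.121 RPKM on average in WT. Faim3, the older symbol of a receptor for IgM that B cells carry, had 1.13, 2.24 and 4.21 RPKM in cluster Tg, against 10.5, 8.81 and 7.35 RPKM in miR-23 Tg, and 3.27 RPKM in WT. None of the tested genes of the B cell list was called, nor was Lyz2. That list names the IgM receptor by its newer symbol, Fcmr, so Faim3 was not counted in it. In miR-23 Tg library 3 Lyz2, at 7.05 RPKM, was below every cluster Tg library, while Il1b and Faim3 were above all of them. The part of other cells in Il1b and Faim3 was not tested. The call was lost for Il1b without miR-23 Tg library 2 (limma adjusted p = 0.0559), and for Faim3 without cluster Tg library 1 (0.0929) or miR-23 Tg library 1 (0.0659).

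**Figure D3:**
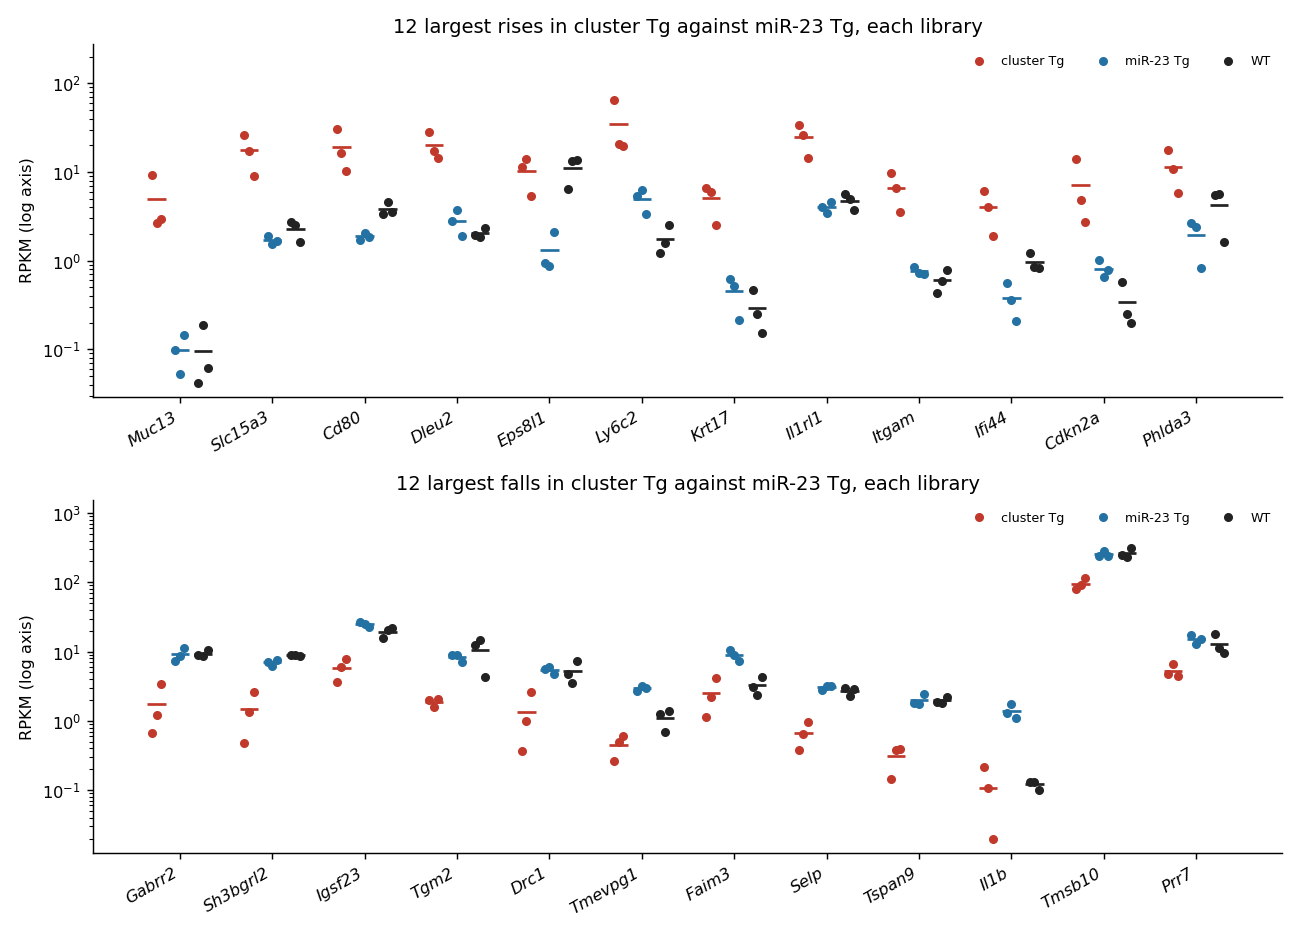
RPKM (log axis) of the 12 largest rises and the 12 largest falls in each library of cluster Tg, miR-23 Tg and WT, with lines at group means and the single value of 0 (Il1b) drawn at 0.02. Cluster Tg and miR-23 Tg do not overlap for any of the 24 genes, while WT lies near cluster Tg for Eps8l1 and Il1b.

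Interferon response genes gave the highest share of calls of any list. Of 52 tested, 39 (75.0%) rose in cluster Tg and none fell, beside 10.9% higher and 7.89% lower of all tested genes. The median log2 difference of the list was 0.68. The summed level of the list was 5162 to 6133 RPKM in cluster Tg and 3337 to 3735 RPKM in miR-23 Tg, beside 3564 to 3843 RPKM in WT. Ifit3, an interferon-induced antiviral protein, had 26.3, 22.5 and 18.3 RPKM in cluster Tg, against 4.51, 5.54 and 4.78 RPKM in miR-23 Tg. Oas2, which makes the signal for RNase L, had 15.8, 18 and 11.1 RPKM in cluster Tg, against 3.91, 3.43 and 2.48 RPKM in miR-23 Tg. Cmpk2, a nucleotide kinase, had 14.3, 12.7 and 10.2 RPKM in cluster Tg, against 5.18, 4.30 and 4.11 RPKM in miR-23 Tg. The groups did not overlap for any of these, and the differences were 4.18-fold, 4.08-fold and 2.55-fold (limma adjusted p = 3.60e-05, 4.81e-05 and 2.53e-05). Ifih1, a sensor of viral RNA, was 2.40-fold higher. WT averaged 6.93 RPKM for Ifit3 and 5.32 RPKM for Oas2, above miR-23 Tg in both. DKO, which lacks the clusters, averaged 13.8 RPKM for Ifit3 and 10.8 RPKM for Oas2, above WT and below cluster Tg. It also lay above WT for Cmpk2 (6.19 against 4.82 RPKM) and Ifih1 (10.8 against 8.58 RPKM). In the alternative fits 30 to 39 list genes rose.

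Genes of the effector Treg state were next. Of 40 tested, 25 (62.5%) rose and none fell, beside 10.9% higher and 7.89% lower of all tested genes. The median log2 difference was 0.79, and the summed level was 3399 to 5734 RPKM in cluster Tg and 2028 to 2191 RPKM in miR-23 Tg. Itgb1, the integrin beta-1 chain, had 275, 213 and 184 RPKM in cluster Tg, against 75.5, 74.6 and 70.4 RPKM in miR-23 Tg. It was 3.0-fold higher (log2 1.58 ± 0.17 SE, limma adjusted p = 5.83e-05). Pdcd1, the inhibitory receptor PD-1, had 78.0, 91.6 and 69.6 RPKM in cluster Tg, against 40.6, 36.8 and 32.2 RPKM in miR-23 Tg. Samsn1, an adaptor protein, had 105, 94.8 and 88.8 RPKM in cluster Tg, against 49.2, 54.5 and 57.2 RPKM in miR-23 Tg. No group overlapped in these 3 genes. The count was 18 to 29 in the alternative fits.

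Genes with which Treg cells suppress other cells rose in 9 of 22 cases (40.9%), beside 10.9% of all tested genes. None was lower, and the median log2 difference was 0.40. Lgals1, the galectin-1 gene, had 495, 386 and 428 RPKM in cluster Tg, against 154, 177 and 177 RPKM in miR-23 Tg (2.57-fold, limma adjusted p = 0.00209). Nrp1, a semaphorin receptor that marks thymus-derived Treg cells, had 127, 115 and 93.5 RPKM in cluster Tg, against 51.9, 47.0 and 54.4 RPKM in miR-23 Tg. Ebi3, a subunit of interleukin-35, had 49.3, 49.2 and 29.7 RPKM in cluster Tg, against 23.3, 22.1 and 20.2 RPKM in miR-23 Tg. All 3 were apart between the groups. The inhibitory receptor Tigit had 240, 267 and 125 RPKM in cluster Tg, against 105, 97.8 and 96.2 RPKM in miR-23 Tg, and its limma adjusted p was 0.0107, and 0.0563 without cluster Tg library 1. Without that library 5 of the suppression genes rose.

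The genes that define Treg identity split. Of 37 tested, 9 (24.3%) rose and 8 (21.6%) fell, with a median log2 difference of 0.02. Over all tested genes the shares were 10.9% and 7.89%. Foxp3 had 257, 283 and 207 RPKM in cluster Tg, against 243, 215 and 249 RPKM in miR-23 Tg, and the groups overlapped (log2 difference 0.07 ± 0.16 SE, limma adjusted p = 0.813). Ctla4, the inhibitory receptor for CD80, had 441, 568 and 435 RPKM in cluster Tg, against 427, 490 and 495 RPKM in miR-23 Tg, also with overlap. Il2ra, which encodes CD25, had 208, 200 and 248 RPKM in cluster Tg, against 163, 155 and 183 RPKM in miR-23 Tg, which did not overlap and did not pass (limma adjusted p = 0.0976). Ikzf2, the Helios gene, did pass: it had 112, 125 and 121 RPKM in cluster Tg, against 66.8, 58.7 and 83.8 RPKM in miR-23 Tg (1.72-fold, limma adjusted p = 0.00293), and WT stood between them at 103 RPKM. Among the 8 lower genes were Ikzf1 (Ikaros), with 76.8, 74.6 and 76.7 RPKM in cluster Tg, against 121, 111 and 121 RPKM in miR-23 Tg. Satb1, a chromatin organiser, had 32.2, 37.3 and 34.1 RPKM in cluster Tg, against 63.2, 60.04 and 63.8 RPKM in miR-23 Tg. Bach2, a repressor that holds back effector differentiation, had 7.48, 10.4 and 11.7 RPKM in cluster Tg, against 18.8, 15.3 and 20.7 RPKM in miR-23 Tg. These 3 transcription factors were 1.54-fold, 1.80-fold and 1.83-fold lower (limma adjusted p = 2.53e-04, 0.00208 and 0.00398). Il10, Rel and Gata3 did not pass. Gata3 had 79.9, 80.9 and 35.3 RPKM in cluster Tg, against 48.7, 45.4 and 47.1 RPKM in miR-23 Tg, and passed as higher only in the fit without cluster Tg library 3 (limma adjusted p = 0.0341). Without cluster Tg library 1, 5 identity genes were higher and 4 lower, and without miR-23 Tg library 1 the counts were 5 and 5.

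**Figure D4:**
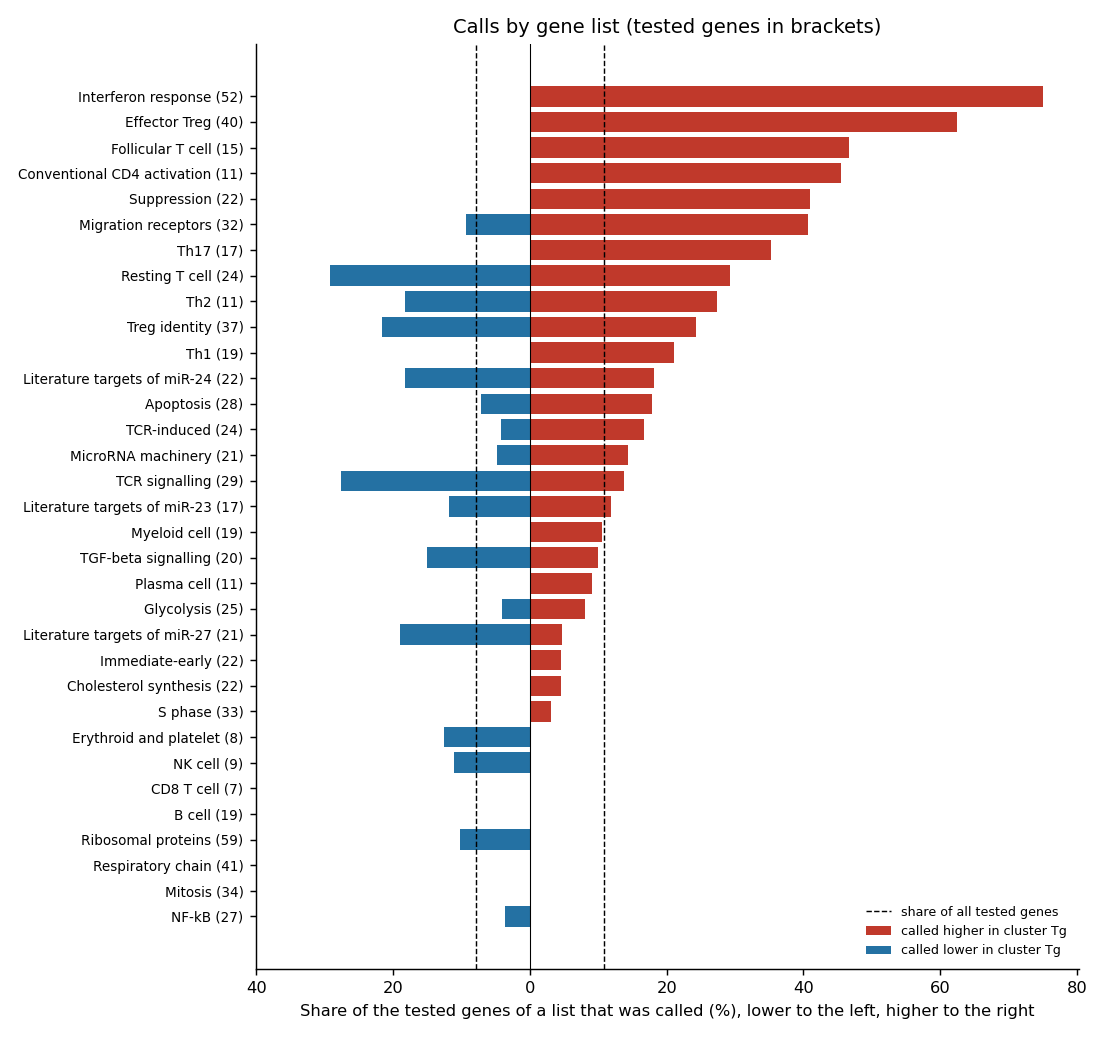
Share of the tested genes of each list that was called higher (right, red) or lower (left, blue) in cluster Tg against miR-23 Tg, with the number tested in brackets and dashed lines at the shares of all tested genes, 10.9% higher and 7.89% lower. Interferon response and effector Treg genes reach 75.0% and 62.5% higher with none lower, while mitosis, respiratory chain and B cell genes have no call.

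Of 32 receptors for migration 13 (40.6%) were higher and 3 (9.38%) lower, beside 10.9% and 7.89% of all tested genes. The median log2 difference was 0.40. Besides Itgb1 and Itgam, Ccr4, a chemokine receptor for entry into skin, had 47.4, 57.3 and 46.1 RPKM in cluster Tg, against 29.95, 25.4 and 25.4 RPKM in miR-23 Tg. Ccr3, an eotaxin receptor, had 5.95, 3.32 and 2.36 RPKM in cluster Tg, against 0.412, 0.40 and 0.449 RPKM in miR-23 Tg (4.49-fold, limma adjusted p = 4.74e-04). Ccr7, which guides T cells into lymph nodes, went the other way, with 71.8, 92.0 and 102 RPKM in cluster Tg, against 186, 183 and 180 RPKM in miR-23 Tg. It was 2.08-fold lower (limma adjusted p = 1.42e-04). Selp was also among the 3 that fell. Genes of the resting T cell state were split, 7 higher and 7 lower of 24 (29.2% each), with a median of -0.11. Those that rose included the membrane proteins Ms4a4c, with 79.4, 47.8 and 54.9 RPKM in cluster Tg, against 15.5, 18.8 and 16.3 RPKM in miR-23 Tg, and Ms4a4b (1.79-fold). Those that fell included Ccr7, Satb1 and Bach2. Without cluster Tg library 1, 5 resting genes were higher and 3 lower, without miR-23 Tg library 1 the counts were 5 and 4, and without miR-23 Tg library 2 they were also 5 and 4.

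Lists of helper T cell genes also held more rises than falls, and they share members with those above. Over all tested genes 10.9% rose and 7.89% fell. Of 17 Th17 genes 6 (35.3%) rose and none fell, with a median log2 difference of 0.63. Tmem176b, an ion channel of intracellular membranes, had 148, 79.2 and 66.2 RPKM in cluster Tg, against 20.5, 19.3 and 19.8 RPKM in miR-23 Tg. Its neighbour Tmem176a had 114, 61.5 and 46.6 RPKM in cluster Tg, against 15.8, 15.6 and 13.9 RPKM in miR-23 Tg. Both were over 4-fold higher (4.54-fold and 4.45-fold, limma adjusted p = 9.43e-04 and 9.92e-04), with no overlap. Batf, a transcription factor of effector T cells, was 1.67-fold higher, and Ccl20, the ligand of CCR6, was 2.50-fold higher. Follicular T cell genes rose in 7 of 15 cases (median 0.45), among them Angptl2, with 55.0, 39.2 and 32.8 RPKM in cluster Tg, against 17.7, 14.9 and 15.9 RPKM in miR-23 Tg, and the costimulatory receptor Icos (1.59-fold). Among Th1 genes 4 of 19 (21.1%) rose. Both chains of the interleukin-18 receptor were among them: Il18r1 had 145, 115 and 99.6 RPKM in cluster Tg, against 30.1, 27.6 and 38.8 RPKM in miR-23 Tg. Il18rap had 28.2, 17.0 and 12.3 RPKM in cluster Tg, against 3.6, 4.47 and 5.33 RPKM in miR-23 Tg. The count was 2 without cluster Tg library 1 or 2 or without any 1 miR-23 Tg library. Of 11 Th2 genes 3 (27.3%) rose, namely Il1rl1, Ccr4 and Maf, and 2 (18.2%) fell. None fell without cluster Tg library 1 or miR-23 Tg library 1. Genes of activated conventional CD4 cells rose in 5 of 11 cases with none lower, in the main and every alternative fit. Tnfsf11, which encodes RANK ligand, had 85.2, 60.3 and 54.3 RPKM in cluster Tg, against 31.2, 32.8 and 27.4 RPKM in miR-23 Tg. Tnf had 60.9, 40.9 and 37.9 RPKM in cluster Tg, against 23.3, 26.7 and 27.2 RPKM in miR-23 Tg.

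T cell receptor signalling had more falls than rises, 8 (27.6%) against 4 (13.8%) of 29, with a median log2 difference of -0.19. Over all tested genes 7.89% fell and 10.9% rose. Csk, the kinase that restrains Lck, had 162, 182 and 165 RPKM in cluster Tg, against 240, 225 and 209 RPKM in miR-23 Tg. Cblb, a ubiquitin ligase that restrains signalling, had 20.6, 22.8 and 18.2 RPKM in cluster Tg, against 36.2, 32.9 and 29.9 RPKM in miR-23 Tg. Fyn, a kinase that starts the signal, had 138, 149 and 141 RPKM in cluster Tg, against 180, 178 and 172 RPKM in miR-23 Tg. The 3 differences were 1.32-fold, 1.59-fold and 1.24-fold, so the lower genes included both promoters and restrainers of the signal. The count of lower genes was 4 without cluster Tg library 1, 3 without miR-23 Tg library 1 and 5 without miR-23 Tg library 2. Of 24 genes induced by the receptor 4 (16.7%) rose and 1 (4.17%), Myc, fell, with a median of -0.15. The 4 higher were 2 without cluster Tg library 1, 1 without cluster Tg library 2 and 2 without any 1 miR-23 Tg library. Myc had 43.7, 52.9 and 53.4 RPKM in cluster Tg, against 72.6, 73.8 and 75.6 RPKM in miR-23 Tg (1.48-fold lower, limma adjusted p = 0.00743). Of 27 NF-kB genes 1 was called, Birc3, which was 1.32-fold lower.

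Growth and metabolism lists stayed near the median of all genes, except the ribosomal proteins. None of 34 mitosis genes and 1 of 33 S phase genes was called, with medians of 0.01 and -0.05. Mki67, a marker of cycling cells, had 31.0, 28.1 and 31.1 RPKM in cluster Tg, against 24.9, 22.3 and 25.7 RPKM in miR-23 Tg. The groups did not overlap but the difference did not pass (limma adjusted p = 0.574), and both stood above the 5.69, 11.8 and 10.4 RPKM of the WT libraries. That model takes its spread from all 18 libraries, and Mki67 varied from 31.9 to 82.6 RPKM within miR-27 Tg. This p therefore does not decide whether the 2 compared groups differed. In the fit of only those groups, 0 mitosis genes were higher and 1 was lower. None of 41 respiratory chain genes was called, 1 of 22 cholesterol synthesis genes rose, and of 25 glycolysis genes 2 rose and 1 fell. Aldoc, an aldolase, had 16.6, 13.3 and 8.84 RPKM in cluster Tg, against 3.87, 3.30 and 3.95 RPKM in miR-23 Tg (3.10-fold, limma adjusted p = 1.09e-04). Pdk1, which limits entry of pyruvate into mitochondria, had 17.7, 19.4 and 23.2 RPKM in cluster Tg, against 30.1, 28.9 and 31.3 RPKM in miR-23 Tg. Ribosomal protein genes had a median log2 difference of -0.27 and a summed level of 23452 to 30716 RPKM in cluster Tg and 30638 to 35068 RPKM in miR-23 Tg. Of 59 genes 6 were called, all lower (10.2%, near the 7.89% of all tested genes). Rps20 had 666, 686 and 907 RPKM in cluster Tg, against 1105, 1242 and 1022 RPKM in miR-23 Tg. That count was 20 without cluster Tg library 3, 2 without cluster Tg library 1, 3 without cluster Tg library 2 and 2 without miR-23 Tg library 2. Among 28 apoptosis genes 5 (17.9%) rose and 2 (7.14%) fell, beside 10.9% and 7.89% of all tested genes. The counts were 3 and 1 without cluster Tg library 1 and 6 and 4 without cluster Tg library 3.

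Sites for the added microRNAs were found in a larger share of the lower genes than of all genes, a difference that was not tested. A site was an exact match to the complement of the seed, on the transcript strand, in the longest annotated 3' UTR, which was CTGAGCC for miR-24, ACTGTGA for miR-27 and AATGTGA for miR-23. A miR-24 site was found in 28.1% of 876 lower genes and in 15.1% of 1195 higher genes, against 19.1% of all 10591 genes with a 3' UTR. A miR-27 site was found in 22.6% of the lower and 15.5% of the higher genes, against 17.2% of all. For miR-23, which both groups overexpressed, the shares were 15.6% of the lower and 18.4% of the higher genes, against 16.4% of all. The median 3' UTR was 1108 bases in the lower genes and 1347 bases in the higher genes, against 1155 bases in all. The part of 3' UTR length and base composition in these shares was not tested. Sites extended by an A to 8 bases kept the order, at 11.9% of the lower genes against 8.67% of all for miR-24 and 10.05% against 6.27% for miR-27. Across all genes with a site the shift was small. The median log2 difference was -0.03 with a miR-24 site and 0.02 without, -0.02 with a miR-27 site and 0.02 without, and 0.04 with a miR-23 site and 0.00 without.

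Sites in some of the genes that fell, chosen after their values were seen, are shown in 29 bases of the transcript strand (GRCm38, GENCODE annotation), with the match in capitals. They show which of the falling genes could be read by 1 of the added seeds and which by both.
Sh3bgrl2 miR-27, chr9:83597305-83597333: cctgatgcatcACTGTGAcaaagccacac
Sh3bgrl2 miR-24, chr9:83597400-83597428: gcatgattgctCTGAGCCaatcagttctg
H2afx miR-24 first, chr9:44335267-44335295: cacagaaagagCTGAGCCacttcgggctg
H2afx miR-24 second, chr9:44335948-44335976: ccctgtctggaCTGAGCCtctggcttctg
Slc16a5 miR-24 first, chr11:115473457-115473485: ttgagcagggcCTGAGCCagaatctcctt
Tmsb10 miR-27, chr6:72957490-72957518: ccacaagctgcACTGTGAaacccgggcac
Osgin1 miR-27, chr8:119445298-119445326: ttcgggcaggcACTGTGAacccaacctca
Ppif miR-27, chr14:25700160-25700188: ccctcctggtcACTGTGAatcctgctggc
Tmsb10 lies on the minus strand and the others on the plus strand.

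Sh3bgrl2, an SH3-binding glutamate-rich-like protein, held both kinds of site within its 3' UTR of 4110 bases. It had 0.471, 1.32 and 2.65 RPKM in cluster Tg, against 7.15, 6.23 and 7.62 RPKM in miR-23 Tg (limma adjusted p = 6.11e-04). It averaged 1.53 RPKM in miR-27 Tg, 4.59 RPKM in miR-24 Tg and 8.79 RPKM in WT. H2afx, the histone variant of DNA damage signalling and a known miR-24 target in human cells, held 2 miR-24 sites, 1 miR-23 site and no miR-27 site. It had 18.2, 19.98 and 15.8 RPKM in cluster Tg, against 49.9, 40.2 and 32.3 RPKM in miR-23 Tg (limma adjusted p = 0.0114, and 0.0553 without miR-23 Tg library 1). Its mean was 10.6 RPKM in miR-24 Tg, 44.6 RPKM in miR-27 Tg and 22.2 RPKM in WT, so cluster Tg lay near WT, with miR-23 Tg and miR-27 Tg above WT and miR-24 Tg below it. Ppif, the cyclophilin of the mitochondrial permeability pore, held 1 miR-27 site and 2 miR-23 sites. It had 8.77, 9.94 and 8.92 RPKM in cluster Tg, against 19.9, 18.6 and 20.2 RPKM in miR-23 Tg, a 2.07-fold fall with the smallest adjusted p of the named genes (limma, 2.16e-05). It averaged 9.07 RPKM in miR-27 Tg, 24.1 RPKM in miR-24 Tg and 24.6 RPKM in WT, so cluster Tg lay near miR-27 Tg. Osgin1, an oxidative stress-induced growth inhibitor, had 4.85, 6.52 and 5.92 RPKM in cluster Tg, against 16.0, 15.4 and 14.2 RPKM in miR-23 Tg. Slc16a5, a monocarboxylate transporter with 2 miR-24 sites, had 0.346, 0.520 and 0.594 RPKM in cluster Tg, against 1.83, 2.27 and 2.11 RPKM in miR-23 Tg. These 5 genes and Tmsb10 were apart between the groups. Plagl1, a zinc-finger transcription factor, held 1 miR-27 site, 1 miR-23 site and no miR-24 site. It had 2.59, 5.02 and 3.88 RPKM in cluster Tg, against 8.65, 8.54 and 11.9 RPKM in miR-23 Tg (2.39-fold lower, limma adjusted p = 0.00165). It was not called in miR-27 Tg against WT (log2 -0.36, limma adjusted p = 0.242) and was lower in miR-24 Tg against WT (-1.88, adjusted p = 2.25e-04), for which it held no site. A site did not always go with a fall: Ifit3, which rose, also held 1 miR-27 site. Of the 12 largest falls, 11 had an annotated 3' UTR, and 2 of them (Sh3bgrl2 and Tmsb10) held a site for any of the 3 microRNAs. Of the 12 largest rises none of the 11 with an annotated 3' UTR did. Each kind of site was found in 16.4% to 19.1% of all genes, and the share with any of them was not determined.

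Genes known from the literature as targets of the 3 microRNAs included both rises and falls. Over all tested genes 10.9% rose and 7.89% fell. Of 22 targets of miR-24, 4 (18.2%) fell and 4 (18.2%) rose, with a median log2 difference of -0.04. Without miR-23 Tg library 1 the count was 2 lower and 2 higher. Those lower were Myc, H2afx, Acvr1b and Mapk14, and Mapk14, the p38 alpha kinase, had 38.1, 44.8 and 37.5 RPKM in cluster Tg, against 55.0, 54.3 and 51.9 RPKM in miR-23 Tg. Of 21 targets of miR-27, 4 (19.0%) fell and 1 (4.76%) rose, with a median of -0.10. Without cluster Tg library 1 the count was 2 lower and 0 higher. The lower ones were Foxo1, Zbtb10, Bach2 and Phb, and Zbtb10, a zinc-finger repressor, had 1.28, 2.37 and 1.42 RPKM in cluster Tg, against 4.03, 3.87 and 5.32 RPKM in miR-23 Tg (limma adjusted p = 0.0121, and 0.0589 without cluster Tg library 1). Of 17 targets of miR-23, 2 (11.8%) rose and 2 (11.8%) fell, near the shares of all genes, with a median of -0.11. Without cluster Tg library 1 or without miR-23 Tg library 2, 1 rose and 1 fell. The 2 that fell were Ppif and Fas.

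The miR-27 Tg and miR-24 Tg groups were each compared with WT to set the effect of either microRNA alone beside that of both added to miR-23, and neither of these comparisons shares a library with cluster Tg against miR-23 Tg. In miR-27 Tg against WT, 15.9% of the genes were higher and 12.7% lower. In miR-24 Tg against WT, 4.60% were higher and 4.38% lower. Of the 2166 genes called in cluster Tg against miR-23 Tg, 1149 (53.0%) were called the same way in miR-27 Tg against WT, which is 34.9% of that list of 3294, and 28 were called the opposite way. For miR-24 Tg against WT the number was 511 (23.6%), which is 49.4% of that list of 1034, and 13 were opposite. Over the 11520 genes, the log2 differences had Pearson's r = 0.333 and Spearman's rho = 0.522 with miR-27 Tg minus WT, and r = 0.250 and rho = 0.449 with miR-24 Tg minus WT. These are descriptions across genes, which are not independent, and the comparisons share the table and the estimate of the spread.

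Itgam stood at 13.8 RPKM in miR-27 Tg and 1.63 RPKM in miR-24 Tg on average, against 0.601 RPKM in WT. Cd80 averaged 21.6 RPKM in miR-27 Tg and 3.24 RPKM in miR-24 Tg, against 3.85 RPKM in WT. Both were called higher in miR-27 Tg against WT and not in miR-24 Tg against WT. Krt17, called higher in both, stood at 1.78 RPKM in miR-27 Tg and 3.19 RPKM in miR-24 Tg, against 0.292 RPKM in WT. Igsf23 and Selp were called lower in both. Igsf23 averaged 5.48 RPKM in miR-27 Tg and 3.28 RPKM in miR-24 Tg, against 19.4 RPKM in WT. Ms4a4c was called in miR-24 Tg against WT (log2 0.87, limma adjusted p = 0.00600) and not in miR-27 Tg against WT (0.24, adjusted p = 0.307), and Ppif was called in miR-27 Tg against WT (-1.39, adjusted p = 8.23e-07) and not in miR-24 Tg against WT (-0.03, adjusted p = 0.901). The effector Treg list had a median log2 difference of 0.79 in cluster Tg minus miR-23 Tg, 1.05 in miR-27 Tg minus WT and 0.84 in miR-24 Tg minus WT. The interferon list had 0.68, 0.41 and 0.17 in the same order. For mitosis the values were 0.01, 2.21 and 0.72, and for the B cell list they were -0.90, 1.71 and 1.47. No test was made of the differences between these comparisons.

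**Figure D5:**
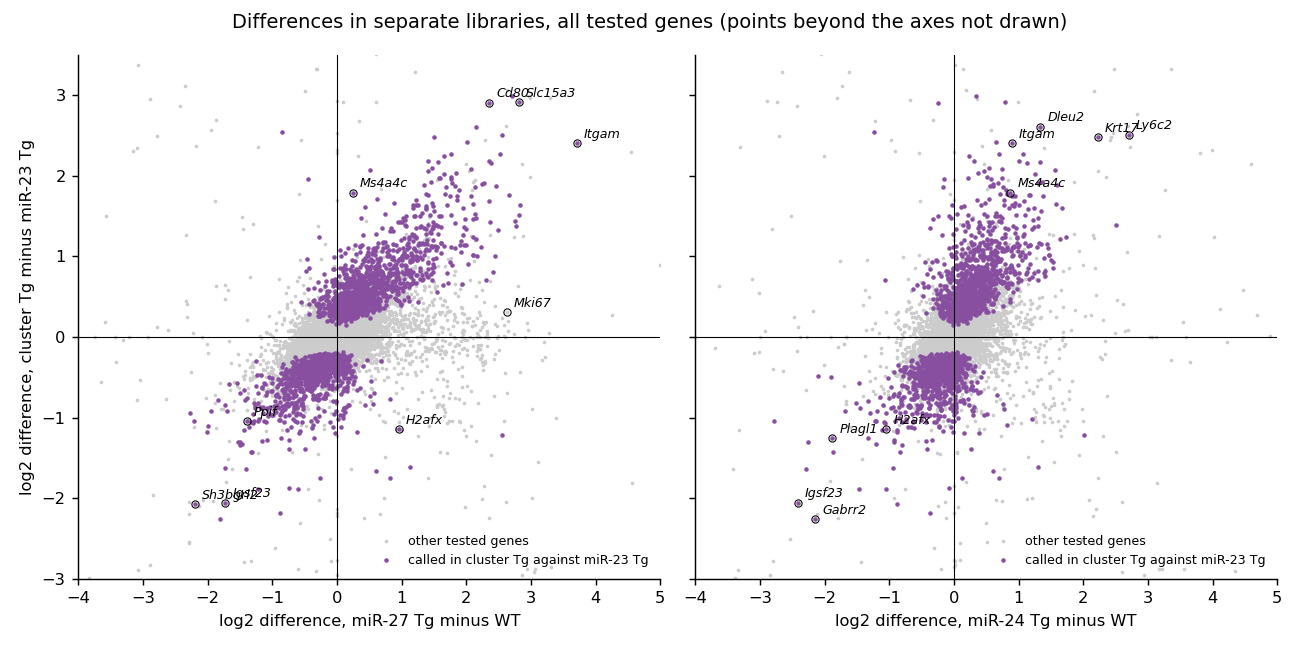
Log2 differences of cluster Tg minus miR-23 Tg (vertical) against miR-27 Tg minus WT (left) and miR-24 Tg minus WT (right) for the tested genes, with genes called in cluster Tg against miR-23 Tg in purple. Most purple points lie in the lower left and upper right corners. H2afx has the same vertical place in both panels, and is low in miR-24 Tg minus WT but not in miR-27 Tg minus WT. Mki67 is high in miR-27 Tg minus WT.

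The 3 cluster Tg libraries differed among themselves. Over the 2166 called genes, library 1 was the farthest of the 3 from the miR-23 Tg libraries, in the direction of the change, for 1325 genes (61.2%) and the nearest for 215 (9.93%). Library 3 was the nearest for 1042 genes (48.1%) and library 2 for 909 (42.0%). In the median gene, the distance from the miR-23 Tg mean was 0.60 on the log2 scale in library 1, 0.45 in library 2 and 0.46 in library 3. Library 1 also had the highest Mir23a, Mir27a and Mir24-2 and the lowest Gt(ROSA)26Sor, and library 3 had the lowest values of these microRNA loci and the highest Gt(ROSA)26Sor. Library 3 was the only cluster Tg library with high Ddx3y and had the most Cd79a of the 3. The part of transgene level, sex and other cells in this spread was not tested. With sex as a term in the model, 1076 genes were higher and 726 lower, and with the mean of the B cell genes as a term 939 were higher and 632 lower, both of these fits being chosen after the data were seen.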

How the data were processed

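RNA from sorted Treg cells was sequenced in 18 libraries of 6 groups, 3 each. The authors deposited 1 table of RPKM values with a column per library. STAR 2.2.0c, HOMER and build mm10 (GRCm38) are named per the submitters' processing notes, and the step and annotation that gave the RPKM values are not given in the sources used here. Of 280510 values above 0, 1758 were under 0.0001 RPKM, less than 1 read can give, so some reads were divided among loci. Genes that share sequence, and overlapping genes, are therefore uncertain. The deposited values hold no read counts. The depth was estimated from the periodicity of RPKM times length over 5346 genes with 1 transcript. Between replicates of the compared groups the median chi-square was 11.1 to 39.6 times that of counting error. It was taken over 1010 to 1060 well covered genes with 1 transcript, so it does not describe genes with few reads.

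Of 23953 entries, 4 with a repeated symbol were dropped and 5198 were listed at 0 in all libraries. The 11520 genes that reached 1 RPKM in 3 or more libraries were tested with limma 3.58.1 in R 4.3.3 on log2(RPKM + 0.5), with a mean-variance trend, 1 mean per group and all 18 libraries, and were called under an adjusted p of 0.05 (Benjamini-Hochberg, two-sided). The prior had 2.26 degrees of freedom. Single loci were compared by exact permutation (scipy 1.17.1). Symbols were matched to GENCODE directly for 11005 genes and by synonym for 431, and 84 were unmatched. Sites were sought in 3' UTRs of at least 50 bases. Python 3.11.15, pandas 2.3.3, numpy 2.4.6 and matplotlib 3.10.9 were used, and the model was tested on simulated data.

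The 34 gene lists and the compared groups were chosen with earlier results of these data known. Named genes were 12 rises and 12 falls, the largest among called genes with separate groups, leaving out predicted genes, clones, small RNAs and antigen receptor segments, the 4 or fewer genes of a list with the smallest p, a panel (Gata3, Rel, Il10, Ikzf2, Ctla4, Il2ra, Foxp3), up to 5 shared with each single-microRNA comparison, up to 5 lower genes per seed site, the microRNA loci and Gt(ROSA)26Sor. A few further list members are named as called without values, and Csf1r, Lyz2, Ddx3y and Cd79a are given as markers. Lists without a paragraph of their own were microRNA machinery (3 of 21 higher, 1 lower), TGF-beta signalling (2 of 20 higher, 3 lower), immediate-early genes (1 of 22 higher), plasma cells (1 of 11 higher), NK cells (1 of 9 lower), erythroid cells and platelets (1 of 8 lower), CD8 T cells (0 of 7) and sex-linked genes (0 of 5).

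Alternatives were only the compared groups in the model, scaling by median of ratios, no filter, pseudocounts of 0.1 and 1, each compared library left out, a block for the replicate number, leaving out library 1 of miR-24 Tg with library 3 of miR-27 Tg, leaving out small RNA entries, a minimum mean of 5 RPKM for the overlaps and 8-base sites. Terms for sex and for B cell genes were added after the data were seen. Some genes that the rule names are not reported here.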

Additional observations from a re-analysis of the deposited data

How the results depend on the processing

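Against 1257 higher and 909 lower genes, the fit with only the 2 compared groups called 716 and 461, and leaving out each of the 6 compared libraries called 677 to 1297 higher and 400 to 893 lower. The other fits stayed within 1.5 times: pseudocounts of 0.1 and 1, no filter (1211 and 842), median-of-ratios scaling (1232 and 930), no small RNA entries (1329 and 809), leaving out library 1 of miR-24 Tg with library 3 of miR-27 Tg (1225 and 881), the sex term and the B cell term. With the replicate number as a block (replicate block) 1397 genes were higher and 1061 lower. Libraries of the 2 groups with the same number did not deviate together (correlations of -0.00718, -0.00881 and -0.0784). With 3 libraries in each group, this cannot tell whether libraries with the same number shared a batch. Of 113 named genes that were called, 33 lost their call in at least 1 alternative, 19 of 52 that were not called gained one, and 0 of the 165 reversed. The overlaps with miR-27 Tg and miR-24 Tg against WT, at 50.5% and 23.2% for genes with a mean of at least 5 RPKM, and the order of the site shares, kept their direction. In the well covered genes where it was measured, the spread between replicates exceeded counting error. The part of depth in the small differences and the causes of the moved counts were not tested.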

Other observations

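Of 21 tested genes of the microRNA machinery, 3 (14.3%) were higher and 1 (4.76%) lower in cluster Tg, near the 10.9% and 7.89% of all tested genes, and the median log2 difference of the list was -0.02. Dgcr8, the partner of Drosha that recognises primary microRNA hairpins, had 23.3, 21.0 and 22.2 RPKM in cluster Tg, against 17.1, 16.3 and 16.2 RPKM in miR-23 Tg (1.33-fold, limma adjusted p = 0.00117), and averaged 21.0 RPKM in miR-24 Tg, 23.7 RPKM in miR-27 Tg and 15.4 RPKM in WT. Xrn2, a nuclear 5' to 3' exonuclease, had 81.8, 73.4 and 79.5 RPKM in cluster Tg, against 55.7, 55.3 and 65.6 RPKM in miR-23 Tg. Neither gene's groups overlapped. In TGF-beta signalling 2 of 20 genes were higher and 3 lower. Itgav, an integrin chain that activates latent TGF-beta, had 12.6, 13.4 and 13.0 RPKM in cluster Tg, against 8.94, 8.31 and 10.2 RPKM in miR-23 Tg (1.41-fold, limma adjusted p = 0.00376). Ski, a repressor of Smad signalling, had 49.5, 53.5 and 52.2 RPKM in cluster Tg, against 74.0, 60.1 and 64.6 RPKM in miR-23 Tg (1.27-fold lower, limma adjusted p = 0.00840). Hbb-bh1, a globin gene, was listed at 0 on average in WT and had 0.599, 0.900 and 0.806 RPKM in cluster Tg, against 2.35, 2.40 and 2.54 RPKM in miR-23 Tg (limma adjusted p = 0.0114, and 0.0533 without cluster Tg library 1).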
